A study of Caenorhabditis elegans with 2 samples.

Results

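The regions described here are 299 peaks where a tagged SCRT-1 protein was recovered by chromatin immunoprecipitation sequencing (ChIP-seq) at the core promoters of protein-coding genes of Caenorhabditis elegans. They were found by position among the 1498 distinct peaks of 2 series-wide lists of reproducible peaks, of which they make up 19.96%. They form 291 loci, because at 8 loci 2 overlapping peaks were both kept. A peak was kept when its summit, the point of highest signal, lay from 300 bp upstream to 200 bp downstream of the nearest annotated start of a protein-coding gene and more than 100 bp from the start of any tRNA, snoRNA, snRNA or rRNA gene. These peaks are called core promoter sites below. The other peaks were 335 sites within 100 bp of such a small RNA gene start, 169 sites farther upstream of protein-coding genes (up to 1000 bp) and 695 sites elsewhere.

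All samples came from strain OP802, which carries the transgene wgIs802, a fosmid copy of scrt-1 fused to TY1, EGFP and 3xFLAG tags together with a wild-type unc-119 gene, in an unc-119 (tm4063) mutant background. Whole early embryos, 2 h old and collected by egg bleaching, were immunoprecipitated with an antibody to GFP in 2 biological replicates. These replicates form 1 group, so no genotype, stage or treatment was compared. The comparisons are between the replicates, and between core promoter sites and candidate peaks of the same window that failed the reproducibility test. Whole embryos mix all their cell types, and the cells in which a site was bound cannot be told apart.

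Scratch proteins are zinc finger transcription factors of the Snail superfamily. Their relatives in other animals bind the E-box CAGGTG, usually repress transcription, and act in neurons and in cell death decisions. In Caenorhabditis elegans the related factor CES-1 represses the cell death activator egl-1 in particular neuronal lineages. A core promoter is the stretch around a gene's start where RNA polymerase II and the general factors assemble. Many worm genes are trans-spliced, so an annotated start can mark the splice site of the messenger RNA and lie downstream of the place where transcription begins.

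The sequences at the strongest sites show a recurring arrangement, and 8 of them are printed for that reason. They run from 50 bp before to 50 bp after the summit, at the sites of highest signal that are present in both replicates' own lists and free of annotated UTRs. Each is read 5′ to 3′ on its gene's strand from the RefSeq genome (WBcel235, the ce11 build). Capitals mark TTGC and its reverse complement GCAA, and the GC box GGGCGG and its reverse complement CCGCCC.
atx-2, chrIII:10461265-10461365, plus strand: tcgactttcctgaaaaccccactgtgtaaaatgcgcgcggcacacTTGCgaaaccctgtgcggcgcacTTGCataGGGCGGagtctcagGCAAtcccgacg
T13C5.6, chrX:6207819-6207919, minus strand: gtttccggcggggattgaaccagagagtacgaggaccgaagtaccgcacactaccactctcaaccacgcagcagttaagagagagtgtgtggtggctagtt
nmad-1, chrIII:5555093-5555193, minus strand: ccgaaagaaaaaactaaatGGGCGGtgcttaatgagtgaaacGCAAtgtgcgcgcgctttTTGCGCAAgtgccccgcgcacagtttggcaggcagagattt
idhg-1, chrIII:4568687-4568787, plus strand: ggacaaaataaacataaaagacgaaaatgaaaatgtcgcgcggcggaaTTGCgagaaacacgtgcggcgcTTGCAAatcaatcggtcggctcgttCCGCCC
pcrg-1, chrII:7200224-7200324, plus strand: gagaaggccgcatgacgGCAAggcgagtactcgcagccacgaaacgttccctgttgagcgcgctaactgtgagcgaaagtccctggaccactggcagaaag
rpl-3, chrIII:3867537-3867637, plus strand: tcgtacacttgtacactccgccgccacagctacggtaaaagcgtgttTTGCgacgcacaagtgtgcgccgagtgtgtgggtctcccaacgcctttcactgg
B0495.9, chrII:7708722-7708822, minus strand: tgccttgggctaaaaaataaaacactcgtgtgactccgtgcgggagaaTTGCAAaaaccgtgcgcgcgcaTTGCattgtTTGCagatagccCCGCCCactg
plrg-1, chrV:10808055-10808155, minus strand: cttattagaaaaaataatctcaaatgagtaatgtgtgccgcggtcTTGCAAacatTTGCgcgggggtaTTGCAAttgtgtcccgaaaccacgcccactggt

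No sequence of chromosome I is shown. In 5 of these 8 windows the word TTGC recurs on one strand, and the words start 21 to 23 bp apart. The sites at T13C5.6, pcrg-1 and rpl-3 have no such repeat within 100 bp of their summits. The repeat at nmad-1 reads on the strand opposite to the gene. The arrangement was noticed in these sequences, so its counts below describe the sites and are no independent evidence for it.

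The signal values are those of the authors' peak caller, on a scale the sources used here do not give, and are compared only within a list. Peaks with the same coordinates in both series-wide lists had the same signal in all 957 cases. The number of reads is unknown, so no interval below covers counting depth. Each share is given with its exact binomial (Clopper-Pearson) 95% interval and each median with an order-statistic 95% interval. Sites and genes are not biological replicates, so these intervals describe the 2 libraries at hand. The control library named in the labels was not analysed here.

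The strongest core promoter site lay 74 bp upstream of the start of atx-2, which encodes an ataxin-2 family RNA-binding protein. Its signal was 359 in the series-wide list, 211 in replicate 1 and 150 in replicate 2. T13C5.6 followed with 347, and its peaks had signals of 197 in replicate 1 and 143 in replicate 2. Both replicates thus had their own strong peak at these 2 promoters, with summits 6 and 1 bp apart.

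A site of signal 346 (203 in replicate 1, 138 in replicate 2) lay 29 bp upstream of ears-2, a mitochondrial glutamyl-tRNA synthetase gene, and also fell in the window of uncp-18 on the other strand. At nmad-1, a gene for a DNA N6-methyladenine demethylase, the summit stood 209 bp upstream with a signal of 329 (209 in replicate 1). At idhg-1, which encodes the gamma subunit of mitochondrial isocitrate dehydrogenase, it stood 60 bp upstream with 314 (177 and 146). Each of these 3 sites was in both replicates' own lists.

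The next sites were at pcrg-1, a homologue of the Parkin co-regulated gene (272, and 147 in replicate 1), and at rpl-3, a protein of the large ribosomal subunit (271, and 156 and 113 in replicates 1 and 2). B0495.9 had a signal of 265 (154 and 114), and plrg-1, a homologue of a spliceosome component, 258 (154 and 110). K05C4.2 and spe-48, a gene with a role in sperm, both had 248. C16C10.4, whose site is shared with rnf-121 on the opposite strand, had 227 (130 and 93.7). All 12 summits were upstream of the nearest start, by 29 to 275 bp, and all 12 peaks were at most 200 bp wide. The median width was 316 bp in the core promoter sites and in each other class of sites. Only 20 of the 299 core promoter sites were narrower than that.

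Over all 299 sites the median signal was 87.3 (interval 84.1 to 90.7), with quartiles of 77.3 and 111. Sites farther upstream of protein-coding genes had a median of 85.4 (82.4 to 91.2) and the sites elsewhere 80.3 (78.9 to 81.5). Sites at small RNA genes had 171 (158 to 187). Core promoter sites therefore sat well below the small RNA gene sites and within the interval of the upstream sites. At the low end, 14 sites had a signal under 20, and all 14 overlapped a stronger peak of the series-wide lists, which for 6 of them was another core promoter site. The lowest, at nsun-2, had 2.43, and its stronger neighbour at the same gene had 75.6. The overlapping peaks of the replicates' own ranked lists, 48.9 and 24.3, were the same for both.

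The replicates found the strong sites separately and most of the others only jointly. In their own thresholded lists, 58 of 299 sites (19.4%, 15.1 to 24.3) overlapped a peak of both replicates, 39 a peak of replicate 1 only and 30 a peak of replicate 2 only. The remaining 172 (57.5%, 51.7 to 63.2) were in neither list. For sites at small RNA genes the share in both lists was 66% (60.6 to 71), for upstream sites 18.3% (12.8 to 25) and for sites elsewhere 10.1% (7.94 to 12.6).

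Every core promoter site overlapped a ranked candidate of replicate 1, and 5 had none in replicate 2. Across the 294 sites with a candidate in both, Spearman's rho of the signals was 0.44. The 238 sites of the conservative list were selected for agreement between these libraries, the other 61 came from the second list alone, and depth is shared by all points of a library. The summits of the overlapping peaks lay a median of 22 bp apart (quartiles 8 and 54).

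**Figure D1:**
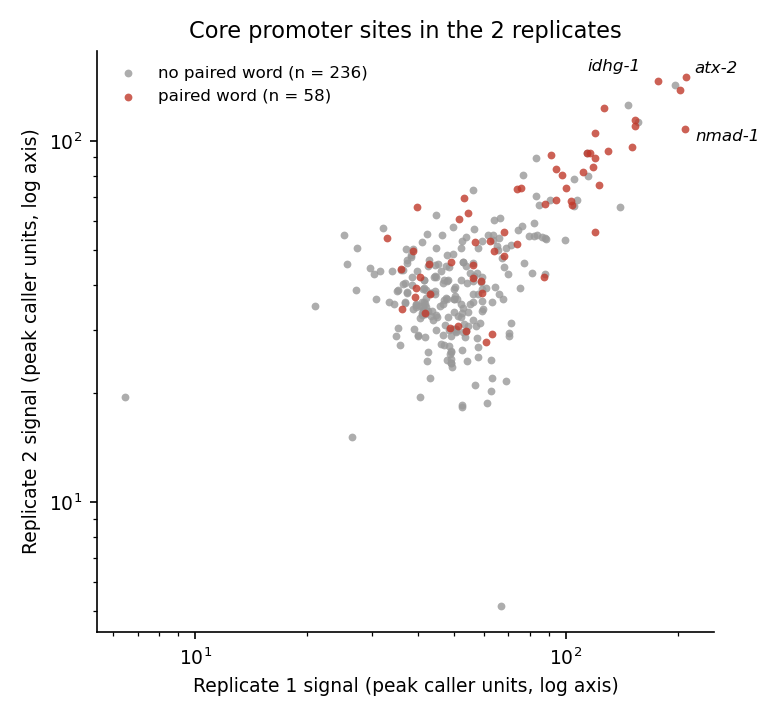
Signal of the overlapping ranked peak in replicate 1 (x axis) and replicate 2 (y axis), in peak caller units on log axes, for the 294 core promoter sites with a peak in both. Each point is a site, red where TTGC recurs 21 to 23 bp apart within 100 bp of the summit (58 sites) and grey otherwise (236); red points are frequent at the upper right, where atx-2 has 211 and 150.

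Summits lay mostly upstream of the start. Of the 299 sites, 234 (78.3%, 73.1 to 82.8) had their summit upstream of the nearest annotated start, at a median position of -115 bp (-130 to -89) and quartiles of -189.5 and -13 bp. The background was 7145 candidates in the same window that the comparison of the replicates ranked with a global irreproducible discovery rate (IDR) above 0.5. The IDR estimates the share of peaks of that rank or better that would not be found again. Of these failed candidates, 55.1% (53.9 to 56.3) were upstream, with a median of -25 bp (-30 to -20).

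Between 200 and 50 bp upstream lay 46.8% of the sites (41.1 to 52.7) and 28.8% of the failed candidates (27.8 to 29.9). From 100 bp downstream to the downstream bound the shares per 50 bp were 3.68% and 4.35% for the sites and 10.3% in both bins for the failed candidates. The sites in both replicates' lists had a median of -150 bp, and those in neither list -85 bp.

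**Figure D2:**
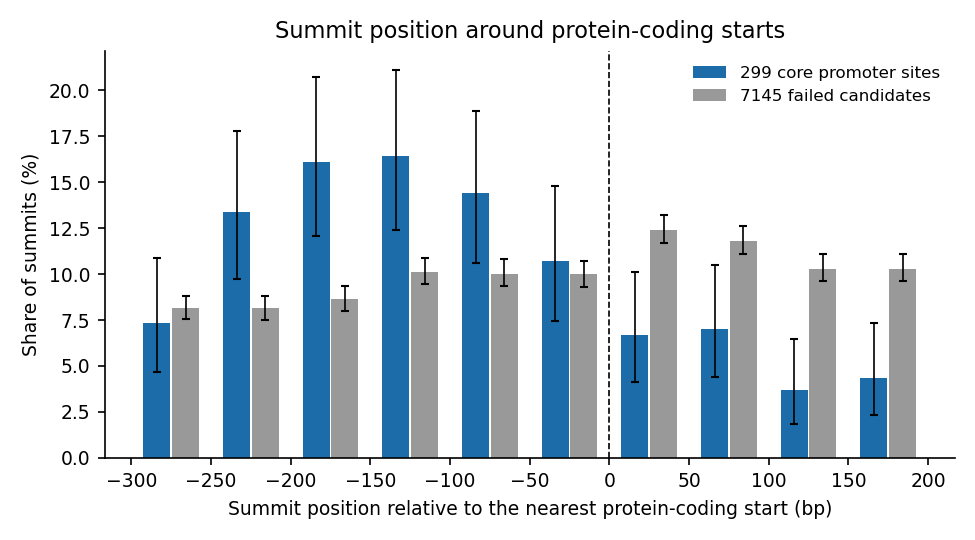
Share of summits (y axis, %) in 50 bp bins of position relative to the nearest protein-coding start (x axis, bp; negative is upstream), for the 299 core promoter sites and 7145 failed candidates. Error bars are exact 95% intervals; the sites peak at 16.4% between 150 and 100 bp upstream and fall to 3.68% in the bin from 100 to 150 bp downstream.

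In the annotation, 199 summits (66.6%, 60.9 to 71.9) lay outside protein-coding genes, 46 in a coding exon, 35 in an intron and 19 in a UTR. Among failed candidates 36.9% (35.8 to 38.1) lay outside protein-coding genes and 31.9% in a coding exon. At 18 sites another annotated non-coding RNA gene started within 100 bp of the summit. The windows of 2 sites, at pcyt-2.1 and K02C4.2, overlapped the body of a snoRNA gene whose start was more than 100 bp away.

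At the edges of the window single sites had these values. The last site inside the upstream bound, at tomm-20 (299 bp upstream), had a signal of 137, and the first one outside, at czw-1 (301 bp), had 102. On the downstream side lido-9 (198 bp) had 120 inside, and his-59 (202 bp) had 89 outside. Nearest to a small RNA gene start, tmem-107 was kept at 130 bp with a signal of 130, and F55A11.6 was left out at 63 bp with 410. In all, 29 summits in the core window were left out because of a small RNA gene start.

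Promoters that serve genes on both strands were frequent. At 51 sites (17.1%, 13 to 21.8) the summit lay in the core window of protein-coding starts on both strands, as at ears-2 and uncp-18 or C16C10.4 and rnf-121. The share was 2.69% (2.32 to 3.09) of failed candidates in the same window and 4.96% of all genomic positions in such windows. Among summits upstream of their start it was 18.4% (13.6 to 23.9) for the sites and 2.9% (2.39 to 3.47) for the failed candidates, so the difference was as large without the downstream summits.

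The sites were spread over all 6 nuclear chromosomes. Chromosome I held 65 of them (21.7%, 17.2 to 26.9), with 14.4% of protein-coding genes and 15.7% of failed candidates. Chromosome V held 50 (16.7%, 12.7 to 21.4), with 25% of the genes and 21.7% of failed candidates. On chromosomes II, III, IV and X the shares were 18.1%, 16.4%, 14% and 13%, and their intervals all include the chromosome's share of the genes.

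The sequence at the summits was rich in G and C. Within 50 bp of the summit the median GC content was 50.5% (49.5 to 51.5), against 38.6% (38.6 to 39.6) at failed candidates and 33.7% in windows of the same length at all 19973 protein-coding promoters, centred at the sites' median position relative to the gene start. Because GC content changes how often any word occurs, the failed candidates' shares below, where called GC-standardised, were standardised to the GC content of the sites in bins of 5 percentage points.

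The E-box of Snail and Scratch proteins was no more common at these sites than in the background. CAGGTG, on either strand within 50 bp of the summit, was present at 8 sites (2.68%, 1.16 to 5.2), in 5.7% of GC-standardised failed candidates and in 3.21% of all promoters. The interval of the sites lay below the GC-standardised share but overlapped that share's own approximate interval (4.68 to 6.89). The interval of the sites included the share of all promoters and the 3.89% of failed candidates without standardisation. None of the 12 strongest sites named above held CAGGTG, nor did any of the 75 sites in the highest quartile of signal (0 of 75, upper bound 4.8%). It was present in 2.96% of upstream sites, 3.31% of sites elsewhere and 3.88% of small RNA gene sites.

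Another E-box, CAAGTG, was present at 43 sites (14.4%, 10.6 to 18.9), in 5.67% of GC-standardised failed candidates and in 4.37% of all promoters. At 20 of the 43 it read GCAAGTG, in which its first bases are the complement of TTGC, so the 2 words overlap there. The MYC-type E-box CACGTG was present at 3.68% of sites and 3.95% of GC-standardised failed candidates.

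The GC box GGGCGG, a word bound by Sp1 and KLF proteins in other animals, was present at 53 sites (17.7%, 13.6 to 22.5), in 8.05% of GC-standardised failed candidates and in 2.86% of all promoters. Words of alternating G and C were also frequent. GCGCGC was present at 15.7% of sites (11.8 to 20.3) and 4.73% of GC-standardised failed candidates, and GCGCAC at 16.4% (12.4 to 21.1) and 3.85%. In all promoters they had 1.4% and 2.33%.

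For the TATA box, the splice acceptor, the GAGA repeat and the B box word the interval at the sites included the GC-standardised share of the failed candidates, and for the GATA factor word it lay below that share. TATAAA was present at 5.35% of sites (3.09 to 8.54), 3.42% of GC-standardised failed candidates and 13.5% of all promoters. TTTCAG, the splice acceptor, was at 9.36% of sites (6.31 to 13.2) and 12.1% of GC-standardised failed candidates. The GATA factor word GATAAG was at 3 sites (1%, 0.207 to 2.9) and 3.55%. GAGAGA was at 13.7% (10 to 18.1) and 10.3%, and CGAACC, part of the tRNA B box, at 2.01% and 2.94%. No other form of the B box word was counted. The T13C5.6 window printed above holds TGAACC, which starts with T in place of C.

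All 2080 distinct 6-base words were then ranked by the ratio of their share at the sites to that in GC-standardised failed candidates, among the 1139 words found at 10 or more sites. TTGCAA came first, at 51 sites (17.1%, 13 to 21.8) and 3.08% of GC-standardised failed candidates, a ratio of 5.54. CGCACG (13.4% and 3.12%), GCGCAC and CCGCAC (16.4% and 4.06%) were among the next 4. Of the first 20 words, 4 contained TTGC or its complement and 5 contained CGCAC or its complement. Without GC standardisation TTGCAA was present in 5.07% of failed candidates, and in all promoters in 5.33%.

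The distance between repeated TTGC words had a single peak. Within 100 bp of the summit, 39 of 299 sites (13%, 9.44 to 17.4) held TTGC words that start 22 bp apart on one strand, and 13 sites each held them 21 and 23 bp apart. Of the 56 distances from 5 to 60 bp searched, the other distances had at most 10 sites, with a median of 4. In failed candidates 1.05% of windows had the distance of 22 bp, or 1.35% after GC standardisation.

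**Figure D3:**
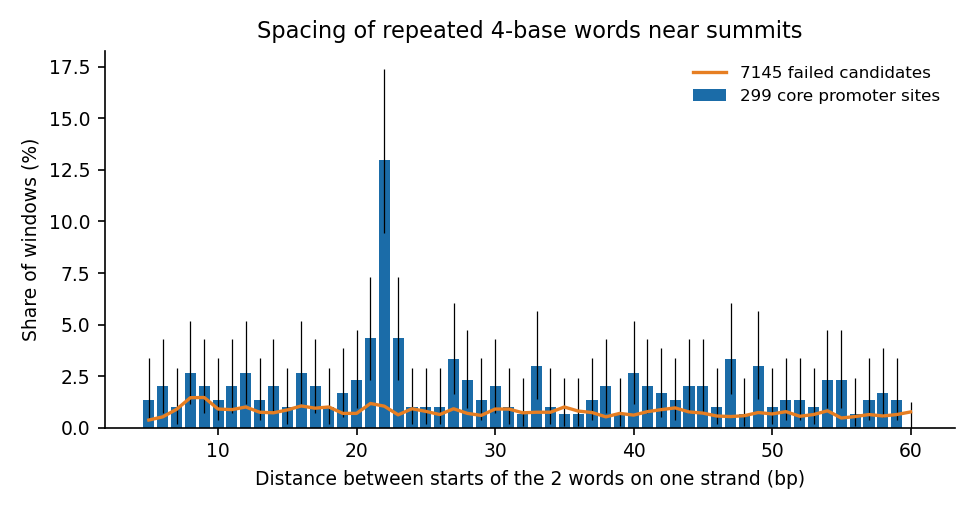
Share of windows (y axis, %) within 100 bp of the summit that hold TTGC words on one strand at each distance between their starts (x axis, bp), for the 299 core promoter sites (bars, with exact 95% intervals) and 7145 failed candidates (line). The bar at 22 bp reaches 13% and its neighbours 4.35%, while the line is at 1.05% at 22 bp.

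Taking 21 to 23 bp as a pair, 60 sites (20.1%, 15.7 to 25.1) held a TTGC pair. The share was 2.77% (2.4 to 3.18) in failed candidates, 2.99% after GC standardisation and 2.1% in all promoters. With both words restricted to TTGCAA or TTGCGA it was 8.03% of sites (24 sites, 5.21 to 11.7) and 0.098% of failed candidates (7 of 7145, 0.0987% after GC standardisation). Sites farther upstream held TTGC pairs at 9.47% (5.51 to 14.9), sites elsewhere at 2.73% (1.65 to 4.24) and small RNA gene sites at 2.69% (1.24 to 5.04).

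The pairs lay close to the summits, with a median distance of 12 bp from the centre of the pair to the summit (quartiles 6.5 and 27). They were searched only within 100 bp of the summit, which bounds this distance. No distance for failed candidates is given beside it. The median position of the pairs was -144.5 bp from the start. On the strand of the gene alone lay 31 of the 60, on the opposite strand alone 15, and 14 sites had pairs on both. Before the words the sequence was GC-rich, as in the capitals' surroundings at atx-2 and idhg-1. In the 10 bases that end 4 bp before a word, GC content averaged 72.1%, and 79% of such stretches held GCG or CGC. The same stretch was not measured at failed candidates, at unpaired TTGC words or at sites without a pair. These values therefore have no background, and whether the GC-rich stretch is particular to the pair was not tested.

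A GC box often stood beside the pair. It lay within 100 bp of the summit at 27 of the 60 sites, and at 20 of them it began 5 to 40 bp after the start of the second word, as in the atx-2 and B0495.9 sequences. At 6 it began 5 to 40 bp before the first word. TTGC pair and GC box together were present at 9.03% of sites (6.04 to 12.9), 0.21% of failed candidates (0.3% after GC standardisation) and 0.25% of all promoters.

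Sites with a TTGC pair were stronger and more often found by both replicates. However, the pair was noticed in sites chosen for high signal and for presence in both replicates' lists. Those sites are counted here, so this comparison and the shares by signal, list and IDR below are no independent evidence of a link. Their median signal was 121 (102 to 172) with a lower quartile of 91.5, against 83.8 (82 to 86.7) and a lower quartile of 75.2 at the 239 sites without one. They were in both replicates' lists at 28 of 60 (46.7%, 33.7 to 60), against 30 of 239 (12.6%, 8.63 to 17.4). The median GC content was 50.5% in both sets.

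By quartile of signal, from lowest to highest, the share with a TTGC pair was 4%, 10.7%, 18.9% and 46.7% (35.1 to 58.6). The share with a GC box was 10.7%, 12%, 12.2% and 36% (25.2 to 47.9). Among the 50 sites of highest signal 27 held a TTGC pair, and among the 12 named above 9 did. The share of sites in both replicates' own lists was 69.3% (57.6 to 79.5) in the highest quartile and between 0 and 4.05% in the others. Each replicate's own list is itself thresholded, so presence in it is not independent of signal. The 3 such sites of the lowest quartile all had a signal under 20 and overlapped a stronger peak.

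**Figure D4:**
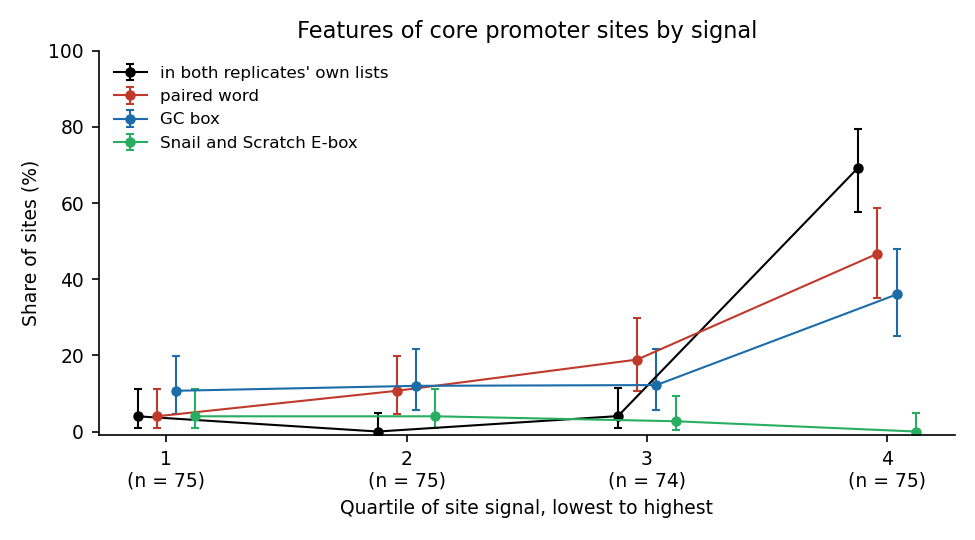
Share of core promoter sites (y axis, %) with each feature by quartile of signal (x axis, lowest to highest, 74 or 75 sites each), with exact 95% intervals. The TTGC pair goes from 4% to 46.7% and the GC box from 10.7% to 36%, while the E-box CAGGTG goes from 4% to 0.

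In each replicate's own thresholded list the pair was present in a larger share of the peaks. Of 100 core promoter peaks in the list of replicate 1, 37% held it (27.6 to 47.2), and of 95 in that of replicate 2, 43.2% (33 to 53.7). Among ranked candidates of the replicate comparison in core promoters, the share was 23.3% (18.1 to 29.2) at an IDR of up to 0.01. It was 4.98% (2.88 to 7.97) between 0.01 and 0.05, 3.15% between 0.05 and 0.2, and 2.53% between 0.2 and 0.5. The highest share was thus in the reproducible peaks. The interval just past the threshold overlapped that between 0.05 and 0.2 (2.18 to 4.4). With both words TTGCAA or TTGCGA the shares of these bands were 0.312% and 0.287%, against 9.58% at an IDR of up to 0.01.

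Most places in the genome with the stricter pair had no site. Words TTGCAA or TTGCGA 21 to 23 bp apart occurred at 433 places, counting those within 50 bp of one another once. Of the 79 places in core promoter windows, 26 (32.9%, 22.7 to 44.4) lay under a core promoter site and 63.3% under any ranked candidate. Of the 68 places farther upstream 8 (11.8%, 5.22 to 21.9) lay under a site, and of the 286 elsewhere 4 (1.4%, 0.382 to 3.54). Under any ranked candidate lay 44.1% of the places farther upstream and 30.1% of those elsewhere. The share of the genome under a candidate was not measured.

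The sites lay in the core windows of 345 of the 19973 nuclear protein-coding genes, which is 1.73% and the background for the gene lists. The lists were read against that share without a test of their own, and genes that share a divergent promoter share a site. The intervals count such genes as separate, so they are too narrow for lists with shared sites, such as the histone and splicing genes. A gene was counted when a summit lay in its window, also where the start of another gene was nearer. Of 30 lists, 20 had a share above the background, and the interval lay above it in 6 and below it in 3. The 80 listed genes with a site are a minority of the 345.

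Histone genes had the highest share, 12 of 81 (14.8%, 7.9 to 24.4) at 7 loci with 9 peaks, 7 of which lay in the windows of 2 histone genes. The site between his-67 and his-68 had a signal of 137 (82.2 in replicate 1, 54.6 in replicate 2) and was in both replicates' lists. The next were the sites shared by his-17 and his-18 (47.8 in replicate 1, 48.2 in replicate 2) and by his-5 and his-6 (97.6). The linker histone gene his-24 had 78.8 (32.2 and 57.2). Histone genes exist in near-identical copies, and how reads that match several copies were placed is not given in the sources used here. None of the 9 peaks held a TTGC pair.

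Genes for pre-mRNA splicing had sites at 7 of 58 (12.1%, 4.99 to 23.3). The list does not hold plrg-1, described above. The strongest of its members were mog-4, a DEAH-box helicase gene (127; 83.8 and 54.8), rnp-6, a splicing factor gene (122; 54.3 and 63.3), and prp-31 of the U4/U6 particle (107; 67.6 and 36.4). The mog-4 site was in both replicates' lists, and the other 2 were each in 1 replicate's list. The rnp-6 summit lay 169 bp upstream of its start and 8 bp downstream of the nearer start of rde-10. RNA polymerase, TFIID and Mediator genes had 6 of 78 (7.69%, 2.88 to 16). The kinase gene cdk-9, which acts in transcription elongation, had 170 (66.6 in replicate 2), the Mediator gene mdt-26 had 151 (90.4 and 68.7) and rpac-19, a subunit shared by RNA polymerases I and III, had 125. The cdk-9 and rpac-19 sites held a TTGC pair.

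Respiratory chain genes had 6 of 51 (11.8%, 4.44 to 23.9). Cytochrome c cyc-2.1 had a signal of 114 (71.3 and 51.4) 95 bp upstream of its start, and the cytochrome oxidase genes cox-6B and cox-5B had 99.3 and 93.7. Translation factor genes had 4 of 42 (9.52%, 2.66 to 22.6), led by eif-3.C with 206 (140 and 65.8) 236 bp upstream and followed by iff-2 with 100. Cytosolic ribosomal protein genes had 3 of 81 (3.7%, 0.77 to 10.4), namely rpl-3, rps-20 (103) and rps-1 (95). The rps-20 site overlapped a candidate in replicate 1 (78.2) and none in replicate 2. Its summit lay nearer to the start of ekl-4 than to that of rps-20. The rps-1 site (70.2 and 29.3) was in neither replicate's own list. The list of ribosomal protein genes leaves out names with a letter suffix. Among these rpl-7A, which shares a site with set-21, had a signal of 80.3 (46.1 and 43.5).

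Neuronal identity genes had 6 of 44 (13.6%, 5.17 to 27.4). The homeobox genes ceh-34 and ttx-1 had signals of 89.1 and 88.4 and the SRY-box gene sox-2 82.8, near the median of all the sites. None of the 6 was in both replicates' lists and none held a TTGC pair. With 1 start per gene in place of all transcript starts, 2 of the 6 were left. Neuronal effector genes had 0 of 45 (upper bound 7.87%), and early lineage transcription factors had 1 of 55, tbx-2, a T-box gene (111; 59.1 and 40.6).

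Among nuclear pore and transport genes 3 of 43 had a site, of which the nucleoporin gene npp-8 had 177 (103 and 68.1), npp-14 had 52.3 in replicate 1 and 52.8 in replicate 2, and the importin gene ima-1 had 100. The npp-14 summit lay 261 bp upstream of its start and 75 bp upstream of that of cel-1. The ima-1 summit lay 291 bp upstream of its start and 53 bp upstream of that of dvc-1. Small GTPase and coat protein genes had 4 of 65, with arf-6 at 153 (73.7 in both replicates), the exocyst gene sec-3 at 103 and apb-1 at 94.3. The arf-6 summit lay 170 bp upstream of its start and 150 bp upstream of that of Y116A8C.9. Of the chromatin genes 4 of 100 had one, led by swsn-3 of the SWI/SNF complex (195; 111 and 82.2) and the H3K9 methyltransferase gene set-25 (91). The sites at npp-8, ima-1, arf-6, swsn-3 and set-25 held a TTGC pair.

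Cell cycle genes had 4 of 94, among them cdc-48.1 (102), the Retinoblastoma homologue lin-35 (97.2) and the cyclin-dependent kinase inhibitor cki-1 (87.4). Spindle genes had 2 of 75, the centrosome scaffold gene spd-5 (89.1) and the condensin gene hcp-6 (68.1). The lin-35 summit lay 218 bp upstream of its start and 200 bp upstream of that of vps-51. The hcp-6 summit lay 136 bp upstream of its start and 128 bp upstream of that of let-630. Maternal RNA and polarity genes had 2 of 46, atx-2 and the atypical protein kinase C gene pkc-3 (68.4). Muscle genes had 2 of 36, the troponin I gene unc-27 (91.1) and the paramyosin gene unc-15 (82.5). The intervals of these lists, of the ribosomal protein genes and of the nuclear pore, small GTPase and chromatin genes include the background.

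One gene each was found for aminoacyl-tRNA synthetases (ears-2, of 31), proteasome subunits (pbs-5, of 31), the vacuolar ATPase (vha-9, of 21) and the Notch and Wnt pathways (lit-1, of 36), and 2 of 70 for the mitochondrial ribosome (mrpl-39 and mrpl-28). The lists of CCT chaperonin and hsp genes (0 of 30), of nucleolar genes (0 of 30) and of small RNA pathway and RNA decay genes (0 of 43) had none. These lists are partial, and related genes outside them did have sites, for example the HSP70 family genes F44E5.4 and F44E5.5 at a shared site (172; 107 and 68.5), the ribosome assembly gene krr-1 (75.3 in replicate 2, and in both replicates' lists) and the RNA interference gene rde-10, which shares a site with rnp-6.

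Large families with tissue-restricted or conditional expression had few sites. Chemoreceptor genes had 2 of 1245 (0.161%, 0.0195 to 0.579), srh-16 and srh-170. F-box genes had 1 of 322 (0.311%, 0.00786 to 1.72), fbxb-85, and C-type lectin genes 0 of 240 (upper bound 1.53%). These 3 intervals lay below the background. Nuclear hormone receptors had 3 of 274 (1.09%, 0.226 to 3.17), led by nhr-95 with 99.7. Cuticle collagens had 2 of 177 (1.13%, 0.137 to 4.02), dpy-17 and col-71. The intervals of both lists include the background. The col-71 summit lay 272 bp upstream of its start and 126 bp upstream of that of Y49F6B.2.

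**Figure D5:**
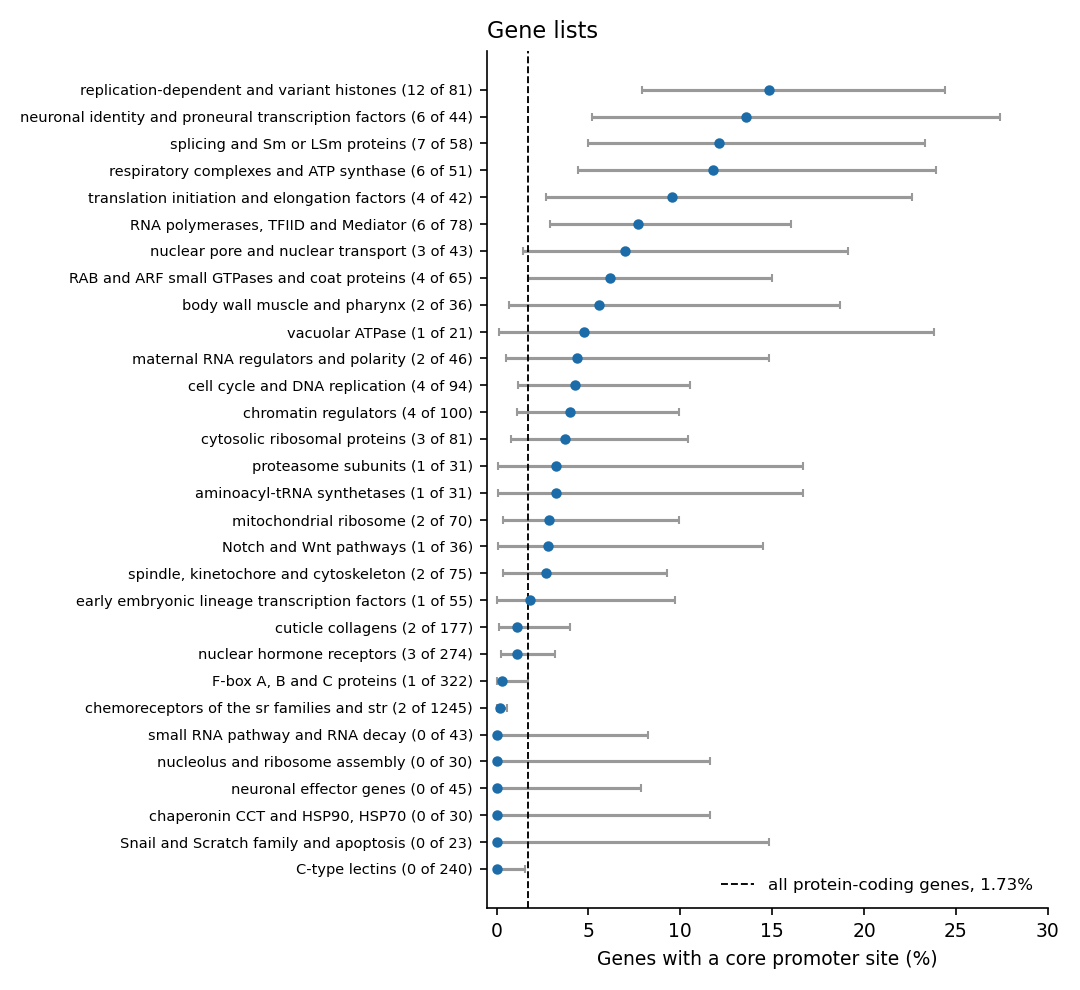
Share of genes with a core promoter site (x axis, %) for each of the 30 gene lists (y axis, with the number of genes with a site and the number listed), with exact 95% intervals. The dashed line is the background of 1.73%; histone genes are highest at 14.8% and chemoreceptors are at 0.161%.

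Of the Snail and Scratch family and cell death genes 0 of 23 had a core promoter site (upper bound 14.8%). The core windows of scrt-1 itself and of ces-1 held no ranked candidate at all. The scrt-1 locus is also present in the transgene, and reads from both copies cannot be told apart. The windows of snai-1 and egl-1 held 1 candidate each, both with an IDR of 0.763 and with signals of 16.9 and 6.55. That of unc-119, which the transgene also carries, held 2 candidates with a lowest IDR of 0.478. The nearest site to an egl-1 start was 2099 bp away and that to an unc-119 start 515 bp away.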

How the data were processed

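The 2 replicates form 1 group and were compared with no other condition. Per the labels, chromatin was sonicated to 200 to 800 bp and the 8 deposited peak lists (a ranked and a thresholded one per replicate and per series-wide comparison) are in ce11 coordinates. The deposited signal is the authors' peak caller value, and each ranked list holds, as deposited, a −log10 global IDR per peak. The aligner, peak caller, depth and handling of reads with several matches, not given in the sources used here, are unknown.

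Summits of both series-wide thresholded lists, rows of the same coordinates counted once, were placed on Ensembl release 115 starts (WBcel235) and sequences read from the RefSeq genome. Replicate signals come from the replicate's own ranked list, at the overlapping peak (1 bp or more) with the nearest summit. Failed candidates had a global IDR above 0.5. Words were counted on both strands in 101 bp windows and TTGC pairs in 201 bp windows. Python 3.11.15, numpy and scipy were used, and the counting was tested on simulated sequences. No hypothesis was tested.

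Named genes are the 12 sites of highest signal in the conservative list (replicate 1 against replicate 2) and in both replicates' lists, up to 3 genes per list, and always egl-1, ces-1, snai-1, scrt-1 and unc-119. Genes named at the bounds of the window, and nsun-2, rpl-7A, F44E5.4, F44E5.5, krr-1 and rde-10, were chosen after their values were seen. The sites, the 30 gene lists and the 24 words were chosen with earlier results of these data known. TTGCAA and the TTGC pair were chosen after the sequences were seen. Alternatives were other lists, windows, starts, single replicates and a stricter IDR.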

Additional observations from a re-analysis of the deposited data

How the results depend on the processing

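With the peaks of 1 replicate's thresholded list alone, the number of core promoter sites ranged from 95 to 100, the share of genes with a site from 0.561% to 0.596%, the gene lists with an interval above the background from 3 to 5 (6 as reported), the median summit position from -147 to -145 bp, the TTGC pair share from 37% to 43.2%, the divergent share from 17% to 17.9%, the chromosome I share from 23.2% to 24% and the median GC content from 50.5% to 51.5%. Peaks with a global IDR of at most 0.001 left 71 sites and 0.426% of genes, 1 gene list above the background, a median position of -147 bp, a median signal of 152, 76.1% of sites in both replicates' lists and a TTGC pair share of 45.1%. A window from 150 bp upstream to 100 bp downstream gave 165 sites, 0.876% of genes and a median position of -58 bp, and one from 500 bp upstream gave -150 bp. The conservative list alone had a median signal of 93.1. The alternatives added after the data were seen, a spacing of 22 bp only and both words TTGCAA or TTGCGA, lowered the pair share to 13% and 8.03% by their stricter definition, and leaving out the 14 sites of signal under 20 kept it within its interval. Divergent share, chromosome share and GC content stayed within their intervals under every alternative run. The histone count went from 12 to 2, and that of splicing, respiratory and neuronal identity genes from 7, 6 and 6 to 2, 1 and 0, at an IDR of at most 0.001. With 1 replicate's list the histone count was 4 to 5, splicing 2 to 4, respiratory 1 to 2 and neuronal identity 0 to 1, and the narrower window left 1 splicing and 3 respiratory genes. The GC box share was 26% to 31.6% and the TTGCAA share 26% to 30.5% with 1 replicate's list, and both were 38% at the stricter IDR. Without GC standardisation TTGCAA was in 5.07% of failed candidates (3.08% with it) and the GC box in 3.09% (8.05%). GCGCAC was then in 2.14% (3.85%) and CAGGTG in 3.89% (5.7%). Within 100 bp of the summit CAGGTG was present at 5.02% of sites. Apart from differences that follow from fewer peaks or another window, the cause was not tested. Signals of 1 replicate alone are on another scale and were not set against the median. No candidate had an IDR above 0.8 (the largest was 0.763), so that alternative gave no value. No paired analysis was possible because there is 1 group. Without the read depth, sites below the IDR threshold cannot be called absent.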
